A study of Mus musculus with 35 samples.

Results

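Interferon-stimulated genes were followed in primary mouse cardiac fibroblasts (CFs) and in mouse hearts in which the micropeptide IAMP had been lowered or removed. The set holds 44 genes of 55487 in the tables, chosen by name as known targets of interferon signalling and matched on the symbol that each table gives. All 44 symbols were found once in every table, and all 44 identifiers are in the GENCODE vM21 annotation of GRCm38, where they lie on 15 chromosomes, with 7 members each on chromosomes 5 and 11. The RNA-Seq libraries comprise 27 of CFs and 8 of hearts. The CFs were non-cardiomyocytes taken from hearts of 8-week-old adult mice by Langendorff digestion and passaged before use. They were left untreated, given IL-17 or given TGF-β, and each of these tables comprises 3 libraries with the control siRNA si-NC, 3 with the siRNA si-IAMP-1 and 3 with the siRNA si-IAMP-2, both directed at the IAMP transcript 4930523C07Rik. The labels state 24 h of siRNA followed by 24 h of IL-17, and no times for the untreated and TGF-β cells. The hearts came from 8-week-old C57BL/6 mice without a stimulus, 4 heterozygous (Het) and 4 IAMP-KO. The IAMP-KO line carries a CRISPR-Cas9 frameshift in every cell of the animal, not only in fibroblasts. Whether the 3 libraries of a group were separate cultures is not given in the sources used here, so p values measure the spread between these libraries, which may be technical.

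Interferons are secreted when a cell detects foreign or misplaced nucleic acid. Type I interferons bind the receptor chains IFNAR1 and IFNAR2 and act through JAK kinases on STAT2, which joins IRF9 in a complex that binds the interferon-stimulated response element (ISRE). Interferon-γ acts through a second element, the gamma-activated site (GAS). The genes switched on include more regulators (Irf1, Irf7, Irf9, Stat2), sensors of nucleic acid, antiviral effectors, chemokines that call in T cells, and large GTPases that attack intracellular microbes. Cells without infection also keep a low tonic level of these genes, and fibroblasts are a classical cell type in which the response is studied.

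Promoter windows from RefSeq (GRCm38.p6, 250 bases before to 50 after each start) were found for 33 of the 44 members. Usp18, Iigp1, Mx1, Oas2, Parp14, Ccl5, Ifi27l2a, Zbp1, Rtp4, Dhx58 and Mx2 had no window in that table. An ISRE core was searched on both strands as GAAANNGAAA and a GAS core as TTCNNNGAA, which reads the same on both strands. The ISRE letters were in a window of 20 of the 33 members (60.6%), against 3.99% of all 27025 genes with a window. The GAS letters were in a window of 10 of the 33 members (30.3%), against 9.55% of all genes. Both were found in 6 members and neither in 9. Overlapping matches were counted as separate spans, such as the 3 ISRE spans that run into each other in Isg15. These are matches of letters, not measured binding.

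The stretches below are shown because they belong to members that the results turn on, and they represent the IFIT family, the ubiquitin-like Isg15, viperin, a chemokine, the GTPases and a regulator. Each is given 5′ to 3′ on the strand of its gene, from 30 bases before to 30 after the outermost matches, with the matched letters in capitals. They lie at chr19:34640755-34640843 for Ifit1, chr4:156200845-156200926 for Isg15, chr12:26456533-26456602 for Rsad2, chr5:92349063-92349132 for Cxcl10, chr3:142620574-142620643 for Gbp2, chr3:142530200-142530322 for Gbp7, chr11:48871405-48871480 for Irgm1 and chr11:53769894-53769962 for Irf1.
Ifit1: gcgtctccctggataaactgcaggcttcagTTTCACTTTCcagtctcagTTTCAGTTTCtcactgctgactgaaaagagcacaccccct
Isg15: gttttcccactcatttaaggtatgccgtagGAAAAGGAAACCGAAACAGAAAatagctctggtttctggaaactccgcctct
Rsad2: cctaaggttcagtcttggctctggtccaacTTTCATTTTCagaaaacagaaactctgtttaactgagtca
Cxcl10: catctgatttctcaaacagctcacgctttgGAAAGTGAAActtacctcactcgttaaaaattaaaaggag
Gbp2: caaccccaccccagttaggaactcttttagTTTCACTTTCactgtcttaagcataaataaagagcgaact
Gbp7: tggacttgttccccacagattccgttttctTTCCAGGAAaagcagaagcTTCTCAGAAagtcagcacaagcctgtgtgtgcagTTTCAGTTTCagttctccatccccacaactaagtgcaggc
Irgm1: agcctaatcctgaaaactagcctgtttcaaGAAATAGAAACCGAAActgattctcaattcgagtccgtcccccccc
Irf1: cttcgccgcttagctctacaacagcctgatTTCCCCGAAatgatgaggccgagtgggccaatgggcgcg
In Ifit1, Rsad2, Gbp2 and Gbp7 the ISRE match lies on the opposite strand, and the capitals show its complement. The capitals mark 2 ISRE spans in Ifit1, the first at -104 to -95 from the start, and 1 each in Rsad2 (-120 to -111), Cxcl10 (-213 to -204) and Gbp2 (-59 to -50). Gbp7 holds 2 GAS spans, at -106 to -98 and -87 to -79, and 1 ISRE span at -53 to -44. Irgm1 holds 2 overlapping ISRE spans, and Irf1 holds a GAS span at -90 to -82 with no ISRE letters in its windows.

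Each CF library held 104139670 to 119232309 estimated counts and each heart 23497027 to 23857313 counts, and levels are given as CPM, counts scaled to a common library size. In the CF tables a read pair stands for up to 6 estimated counts, so a level resting on 18 or fewer was taken to be at the floor of detection, and in hearts the floor was 3 counts. These limits cover counting error only. The target 4930523C07Rik stood at 22.04, 22.7 and 25.7 CPM in untreated si-NC libraries, 2.52, 3.51 and 2.98 with si-IAMP-1 and 1.77, 1.87 and 1.89 with si-IAMP-2, and it fell with both siRNAs in all 3 tables. In hearts it averaged 17.03 ± 1.25 CPM (SD, n = 4) in Het and 16.05 ± 0.976 in KO, and a frameshift need not lower the transcript. Fibroblast markers were abundant in CFs, with 8853 CPM or more summed over 8 genes. Myh6, the defining cardiomyocyte marker, was at 0 or at most 0.0983 CPM in CFs, while in hearts it stood at 15214 CPM or more. The 5 cardiomyocyte markers together were not absent from CFs, since Tnnt2, the gene for cardiac troponin T, stood at 93.9, 89.1 and 97.3 CPM in untreated si-NC libraries, 69.3, 75.9 and 70.2 in IL-17 si-NC libraries and 4.92, 4.47 and 4.88 in TGF-β si-NC libraries. T cell and NK cell markers summed to at most 0.212 CPM and B cell markers to at most 0.370 CPM in any CF library.

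In untreated si-NC CFs the members differed widely in level. Per kilobase of annotated exon, Ifitm3, a membrane protein that blocks viral fusion, was the highest at 415 CPM per kb, followed by Ifit3 at 75.0 and the tether of budding virus Bst2 at 59.8. Isg15 followed at 49.9 and Irgm1 at 45.7 CPM per kb. Ifit3 ranged from 85.9 to 169 CPM between the 3 libraries, and per kilobase it lay below Bst2 in library 2 and above it in libraries 1 and 3. It lay above Isg15 and Irgm1 in each library, while Ifitm3 stood apart. Ifit1 stood at 16.9, Stat2 at 14.4, Irf7 at 8.22, Cxcl10 at 3.65 and Mx1 at 0.373 CPM per kb. Cxcl9 was at 0 in all 3 libraries, and Oas3 was the lowest member detected, at 0.137 CPM per kb. In Het hearts the same measure gave 67.6 CPM per kb for Ifitm3, 2.01 for Ifit3 and 0.0744 for Cxcl10, a mixture of all cell types of the organ. In such bulk samples fewer cells of a type and less RNA per cell cannot be told apart.

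Untreated si-NC libraries did not share one level of these genes. Of the 41 members with a mean of at least 1 CPM, 40 were highest in library 1 and 40 were lowest in library 2. Ifit1 stood at 65.7, 24.4 and 44.6 CPM, Rsad2 at 45.1, 14.5 and 30.4 and Cxcl10 at 13.6, 3.13 and 7.91 in libraries 1, 2 and 3. On the scale log2(CPM + 0.1), the median member deviated from its group mean by 0.33 in library 1 and by -0.36 in library 2, while the median of all genes deviated by 0.01 and -0.01. The coefficient of variation had a median of 22.6% over the members and 5.12% over all 13096 genes of that level, and all 41 members exceeded the latter.

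A like pattern recurred in other groups, although not always with the same libraries. With si-IAMP-1 in untreated CFs, 38 of 41 members were highest in library 3 and 39 lowest in library 2, and the median deviations were 0.44 and -0.46. With si-IAMP-2 in untreated CFs, 34 of 39 were highest in library 3 and 24 lowest in library 2, with median deviations of 0.16 and -0.09. Library 2 was thus the lowest for most members in each untreated group. Under IL-17 the si-NC library 3 held the lowest value of all 42 members, with a median deviation of -0.44. The IL-17 libraries with si-IAMP-1 or si-IAMP-2 lay closer together, with a median coefficient of variation over the members of 11.5% and 9.66%, against 27.3% with si-NC. With TGF-β it was 9.29%, 9.11% and 11.3%, although 39 of 43 members were still lowest in si-NC library 1, 41 of 44 highest in si-IAMP-1 library 3 and 41 of 44 highest in si-IAMP-2 library 1. In hearts it was 12.3% in Het and 11.6% in KO, against 8.71% and 7.78% over all genes. The variation between libraries was therefore shared by the members, and the untreated and IL-17 comparisons below are read with the libraries named. Summed macrophage markers ranged from 65.6 to 70.8 CPM over the untreated si-NC libraries and from 65.7 to 67.0 over the IL-17 si-NC libraries.

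**Figure D1:**
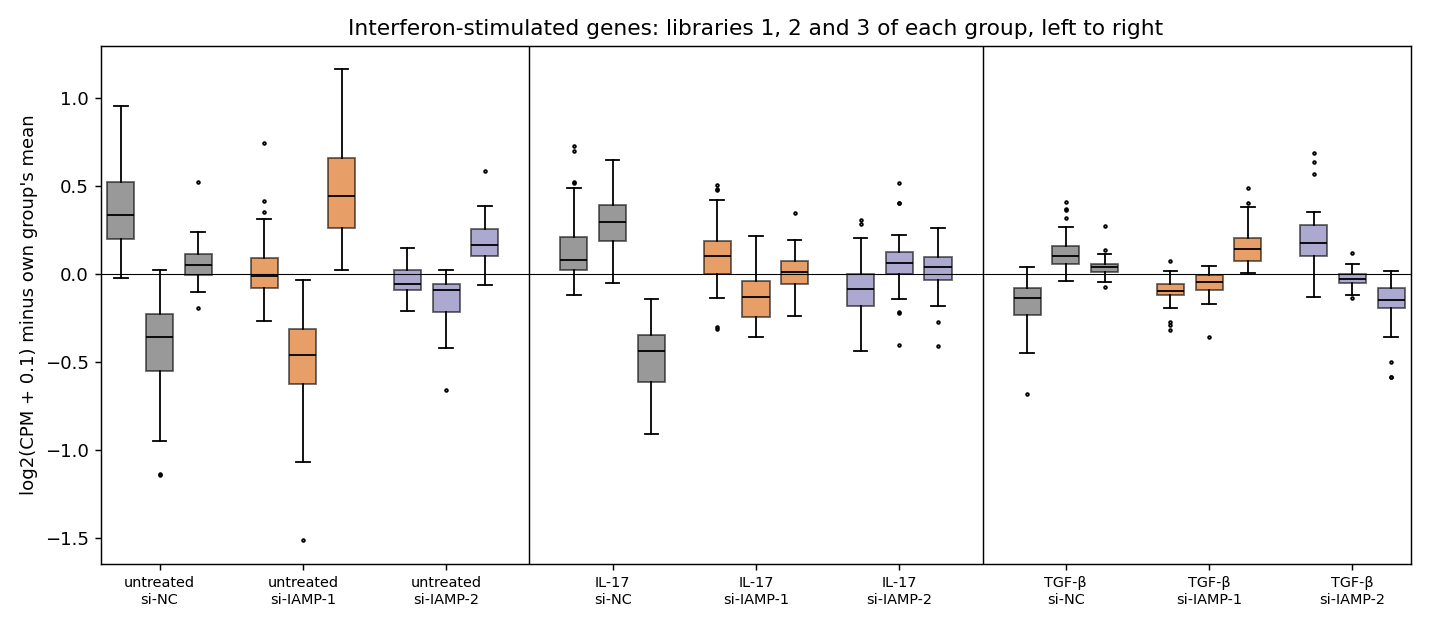
Deviation of interferon-stimulated genes from their own group's mean, on the scale log2(CPM + 0.1), in each of the 27 CF libraries (boxes span the quartiles of members with a group mean of at least 1 CPM, lines the median, whiskers 1.5 times the box, points the members beyond). Untreated si-NC library 1 and si-IAMP-1 library 3 lie above their groups with medians of 0.33 and 0.44, and IL-17 si-NC library 3 lies below its group with a median of -0.44.

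The comparison of stimulated with untreated si-NC CFs addresses how far the members respond to each cytokine. It sets 2 tables against each other, so that the stimulus and whatever else differs between the tables cannot be told apart. A gene was called where edgeR gave an adjusted p (Benjamini-Hochberg) up to 0.05 together with a change of 1.5-fold or more in either direction. Under IL-17, 16 of 44 members were called higher and 0 lower, against 2.09% of the 22359 genes tested higher and 0.984% lower. The median log2 difference of the members was 0.72, against -0.01 over all genes. Cxcl9 is among the 16, although it stood at 6 estimated counts or fewer in every library of both groups, and no fold is given for it. Cxcl10, which attracts activated T cells, stood at 13.6, 3.13 and 7.91 CPM untreated and 56.2, 37.4 and 19.6 with IL-17, 2.197 on the log2 scale (SE 0.50, edgeR adjusted p = 0.0050). Each IL-17 library lay above each untreated one. Iigp1, a GTPase that acts on parasite vacuoles, rose from 32.3, 12.9 and 25.9 to 83.1, 78.9 and 40.7 CPM, a log2 difference of 1.51, and Rsad2, Cmpk2 and Mx2 rose by 1.36, 1.30 and 1.24. The ranges did not overlap for 13 members. The share of all genes without overlap was not computed, here or for the like counts below, so such counts only describe the members. The count of 16 calls depended on single libraries. Without IL-17 si-NC library 3 it was 28, without IL-17 si-NC library 1 or 2 it was 7 or 5, and without untreated si-NC library 2 or 3 it was 4 or 8.

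In the TGF-β table the members stood far higher. With si-NC, 43 of 44 were called higher than in untreated si-NC CFs and 0 lower, against 17.7% of all genes higher and 16.1% lower, and the median log2 difference was 2.89 against 0.02 over all genes. For all 44 members every TGF-β library lay above every untreated library, and the share of all genes that did so was not computed. The member without a call was Eif2ak2, the RNA-activated kinase PKR, with a difference of 0.47. Irf7, the regulator that amplifies type I interferon, stood at 38.99, 21.8 and 32.3 CPM untreated and 742, 759 and 801 in the TGF-β table, a log2 difference of 4.63 (SE 0.26). Ccl5 went from 0.595, 0.300 and 0.321 to 17.8, 18.6 and 18.8 CPM and Oas3 from 1.40, 0.492 and 1.01 to 27.2, 43.2 and 35.5, log2 differences of 5.50 and 5.19. Zbp1, a sensor of unusual nucleic acid conformations, went from 12.6, 8.62 and 9.53 to 234, 259.8 and 257 CPM. The smallest called differences were those of Irf1 (1.18), Ifit2 (1.25) and Irf9 (1.26). Ifnb1, the gene for interferon-β, averaged 0.170 CPM in the TGF-β si-NC libraries and 0.0294 in untreated ones, and that difference was not called. The labels call the TGF-β cells adult fibroblasts, without naming the heart, and the others cardiac. The study's own text describes the TGF-β cells as cardiac fibroblasts too. Summed macrophage markers stood at 169 to 177 CPM in TGF-β si-NC libraries and 65.6 to 70.8 in untreated ones, with 6 of the 12 markers called higher and 3 lower. Of the defining markers, Ptprc averaged 0.948 CPM against 0.648, Adgre1 7.52 against 1.22 and Csf1r 11.3 against 9.43. Siglech, the defining marker of plasmacytoid dendritic cells, was at 0 in every library of both groups. Other cell type markers moved as well. Summed fibroblast markers stood at 15199 to 15781 CPM in TGF-β si-NC libraries and 10226 to 10384 in untreated ones. Of these 8 markers, 2 were called higher and 3 lower. Summed endothelial markers stood at 99.7 to 102 CPM in TGF-β si-NC libraries and 53.3 to 59.7 in untreated ones, with 5 of the 6 markers called higher and 1, Kdr, lower, and the defining marker Pecam1 averaged 23.1 against 13.6 CPM. Summed cardiomyocyte markers stood at 4.69 to 5.18 CPM against 90.1 to 97.7, with 2 of 4 tested markers called lower and 0 higher. The part of these markers in the result was not tested.

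**Figure D2:**
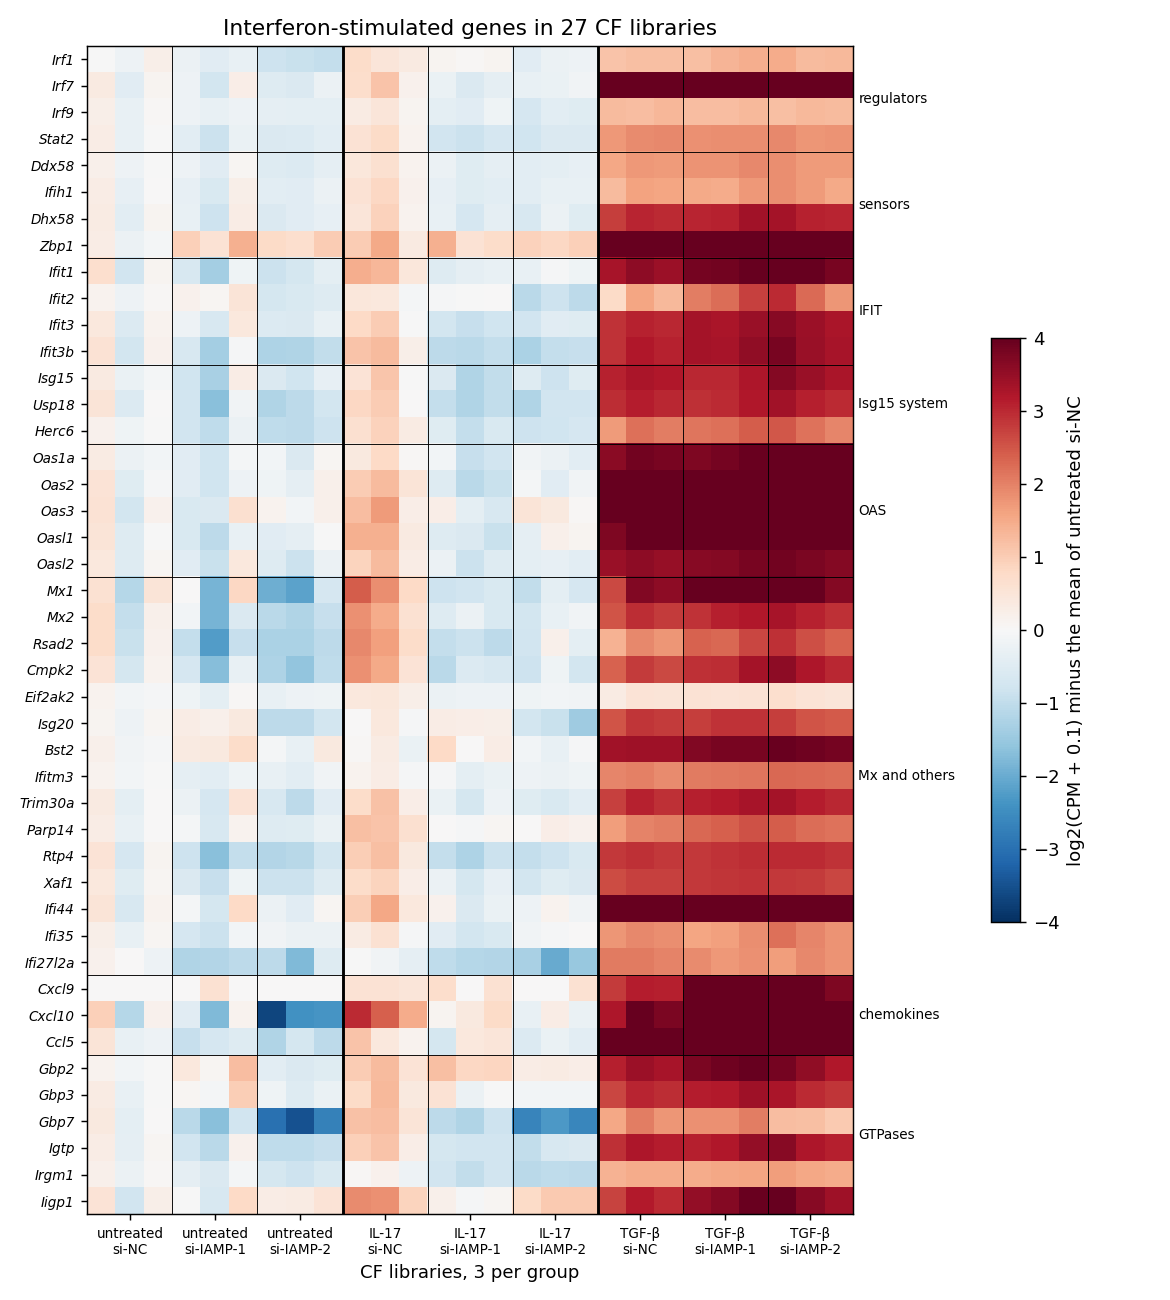
log2(CPM + 0.1) of 44 interferon-stimulated genes in 27 CF libraries, minus the mean of the 3 untreated si-NC libraries, grouped by role (rows) and by table and siRNA (columns). The TGF-β libraries stand above the others in nearly every row, with Irf7 at 738 to 997 CPM, and the IL-17 libraries with si-IAMP-1 or si-IAMP-2 stand below IL-17 si-NC in most rows.

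The comparison of each siRNA with si-NC within a table shows how these genes differ where IAMP was lowered by siRNA. An effect of lowering IAMP and an effect of the siRNA molecule itself cannot be told apart in it. Both siRNAs are compared with the same 3 si-NC libraries, so their results are not independent of each other. In untreated CFs 43 members were tested and Cxcl9 was at the floor. With si-IAMP-1, 1 member was called higher and 5 lower, where 5.42% of the 19669 genes tested were called higher and 6.65% lower. The share of members called lower, 5 of 43, was above that of all genes but rests on few calls. The median log2 fold change of the members was -0.34, against -0.02 over all genes. With si-IAMP-2, 1 was called higher and 12 lower, against 8% and 13.1% of all genes, and the median was -0.59 against -0.02. Of the 43 members, 35 had a value below 0 with si-IAMP-1 and 41 with si-IAMP-2. All 3 si-IAMP-2 libraries lay below all 3 si-NC libraries for 24 members, and all 3 si-IAMP-1 libraries for 8. The shares of all genes below 0 or without overlap were not computed, so these numbers are not read as particular to the members. The counts of calls depended on single libraries. The si-IAMP-1 count of 6 calls was 1 without si-NC library 1, 1 without si-NC library 3, 1 without si-IAMP-1 library 1 and 2 without si-IAMP-1 library 2, and it was 2 and 3 without si-IAMP-2 libraries 1 and 2, which share the fit. The si-IAMP-2 count of 13 calls was 7 without si-NC library 1 and 6, 8 and 8 without si-IAMP-2 libraries 1, 2 and 3.

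In IL-17-treated CFs most members fell. With si-IAMP-1, 34 of the 43 members tested were called lower and 0 higher, where 7.97% of the 19906 genes tested were called lower and 5.58% higher. With si-IAMP-2, 37 were called lower and 0 higher, against 13.7% and 8.06% of all genes. The median log2 fold change was -1.16 with si-IAMP-1 and -1.20 with si-IAMP-2, against 0.00 and -0.02 over all genes. For 34 members all si-IAMP-1 libraries lay below all si-NC libraries, and for 38 members all si-IAMP-2 libraries did, without a share over all genes computed. The counts of calls ranged from 32 to 34 and from 30 to 39 when any single library was left out. The si-NC library that was low, library 3, is counted in these values, and without it the calls were 34 and 39.

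In the TGF-β table all 44 members were tested and few moved. With si-IAMP-1, 5 were called higher and 0 lower, against 2.45% and 1.91% of the 19891 genes tested. With si-IAMP-2, 4 were called higher and 1 lower, against 2.07% and 5.44%. The median log2 fold change was 0.27 and 0.24, against 0.00 and 0.01 over all genes. At the adjusted p alone, with no minimum fold, 14 were higher and 1 lower with si-IAMP-1, and 13 were higher and 2 lower with si-IAMP-2. The share of all genes at that criterion was not computed, so these counts only describe the members. The 5 calls with si-IAMP-1 were 2 without any one of the 3 si-IAMP-1 libraries, 2 without si-NC library 1 or 3 or si-IAMP-2 library 2, and 3 without si-NC library 2. The 5 calls with si-IAMP-2 were 3 without si-NC library 1 or 3, si-IAMP-1 library 1 or 2, or si-IAMP-2 library 1 or 2.

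**Figure D3:**
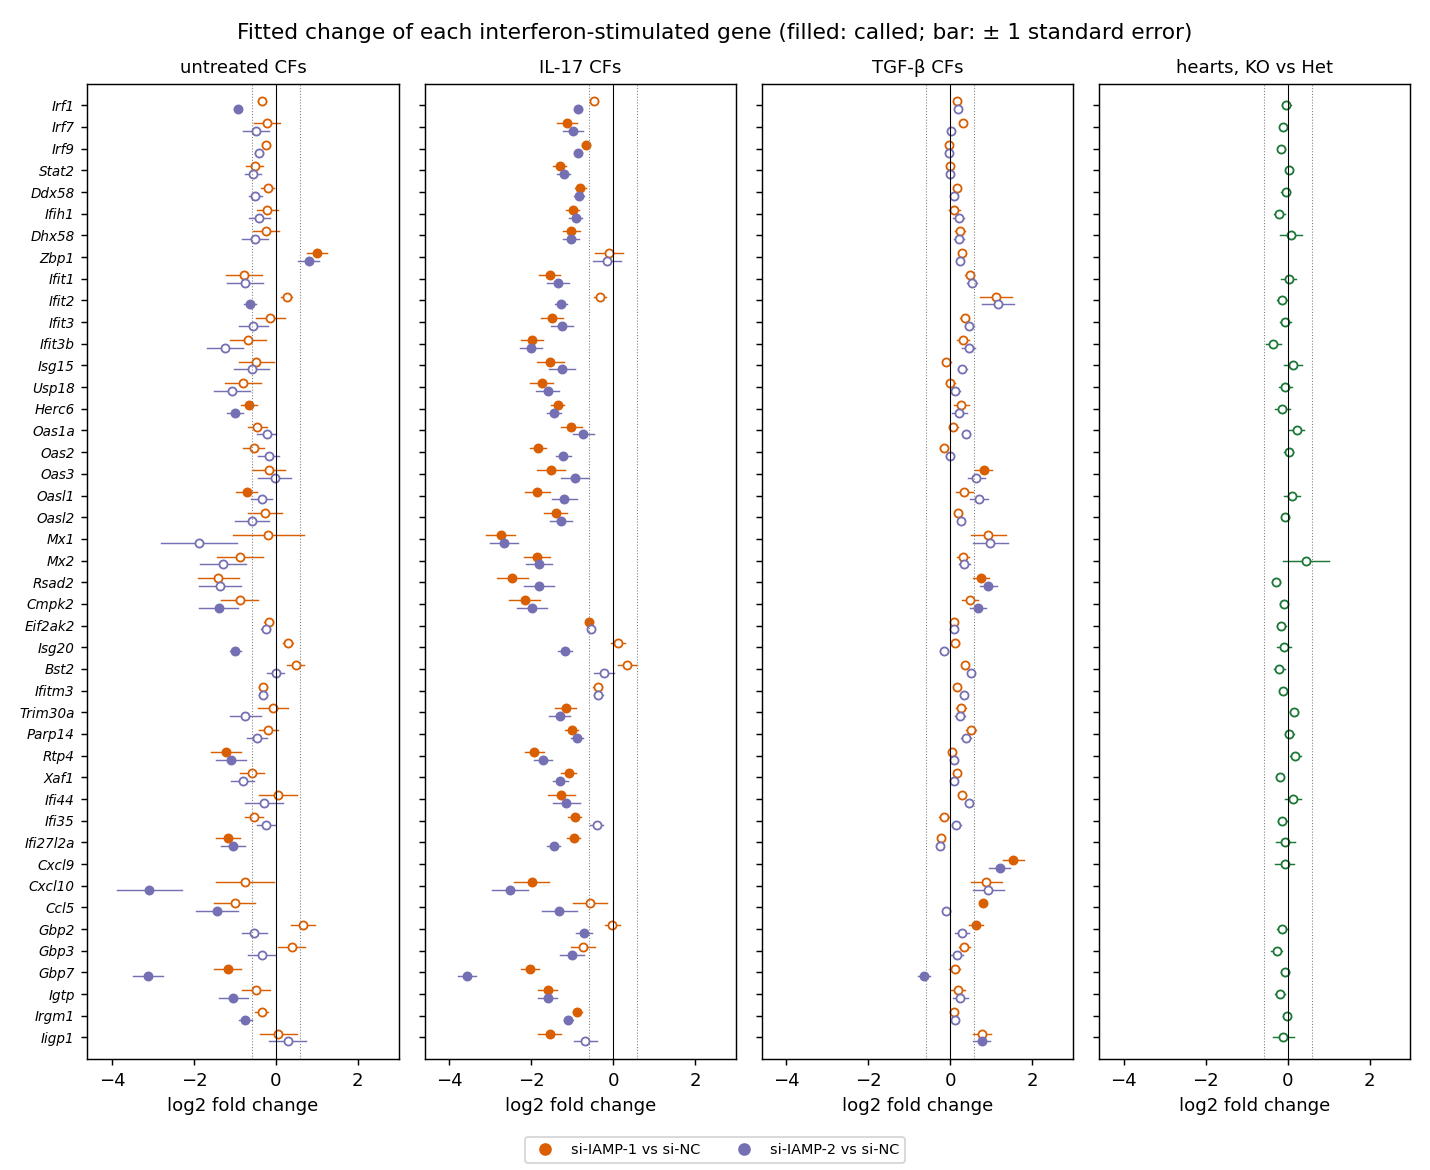
Log2 fold change of each member with si-IAMP-1 or si-IAMP-2 against si-NC in untreated, IL-17 and TGF-β CFs, and in KO against Het hearts (bars, 1 standard error to each side; filled points, called; dotted lines, a 1.5-fold change). Called members under IL-17 all lie to the left of 0, and no member is called in hearts.

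Whether the siRNA effects differ between stimuli was tested as a difference of differences over all 27 libraries. For IL-17 minus untreated, 0 of 44 members were called with either siRNA by edgeR, where 0.197% of all genes were called higher and 0.197% lower with si-IAMP-1, and 0.188% and 0.3% with si-IAMP-2. At an unadjusted p under 0.05, 27 members were lower under IL-17 with si-IAMP-1 and 5 with si-IAMP-2, and DESeq2 called 8 and 0. The shares of all genes at those criteria were not computed, so these counts only describe the members. The median differences were -0.84 and -0.51 on the log2 scale. The fall under IL-17 is thus not shown to be larger than that in untreated CFs. Groups of both tables were spread. The median coefficient of variation over the members was 22.6% in untreated si-NC, 30.2% in untreated si-IAMP-1 and 27.3% in IL-17 si-NC. Without untreated si-IAMP-1 library 2 the si-IAMP-1 count was 7, without IL-17 si-NC library 3 it was 5, without untreated si-NC library 1 it was 3 and without IL-17 si-IAMP-1 library 1 it was 1, all lower. With si-IAMP-2 it was 1 without untreated si-NC library 1. For TGF-β minus untreated, 7 members were called higher with si-IAMP-1 and 21 with si-IAMP-2, against 3.21% and 6.41% of all genes higher and 2.23% and 4.83% lower, and 0 members were called lower. The largest called differences were those of Rsad2 (2.14 with si-IAMP-1, 2.27 with si-IAMP-2), Cxcl10 (3.99 with si-IAMP-2), Mx1 (2.83) and Gbp7 (2.46). The si-IAMP-1 count was 3 without untreated si-NC library 1, 15 without untreated si-NC library 2, 13 without untreated si-IAMP-1 library 3, and 4 without untreated si-IAMP-1 library 1 or 2 or TGF-β si-IAMP-1 library 3. The si-IAMP-2 count was 11 without untreated si-NC library 1.

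Among the regulators, Stat2 and Irf9 are parts of the complex that binds the ISRE. Stat2 stood under IL-17 at 126, 144 and 93.5 CPM with si-NC, 49.5, 46.8 and 52.2 with si-IAMP-1 and 48.4, 55.8 and 56.2 with si-IAMP-2, and it fell by 1.30 and 1.20 on the log2 scale (edgeR adjusted p = 0.00064 and 0.00070). All 6 knockdown libraries lay below the lowest si-NC library. Untreated, Stat2 stood at 103, 68.7 and 83.6 CPM with si-NC, 63.1, 46.01 and 70.6 with si-IAMP-1 and 56.2, 57.3 and 62.8 with si-IAMP-2, without a call, and in the TGF-β table at 278, 314 and 318 CPM with si-NC, 297, 304 and 308 with si-IAMP-1 and 322, 286 and 290.4 with si-IAMP-2, with log2 values of 0.00 and -0.01. Irf9 under IL-17 stood at 47.2, 53.03 and 40.6 CPM with si-NC, 28.9, 27.5 and 33.5 with si-IAMP-1 and 23.8, 28.3 and 26.8 with si-IAMP-2, and fell by 0.66 and 0.86. Its untreated values were 44.8, 31.2 and 39.1 CPM with si-NC, 33.2, 31.1 and 33.2 with si-IAMP-1 and 29.5, 29.2 and 29.03 with si-IAMP-2, and its TGF-β values 91.4, 89.7 and 95.2 CPM with si-NC, 88.4, 90.3 and 92.5 with si-IAMP-1 and 86.6, 92.9 and 91.1 with si-IAMP-2, both without a call.

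Irf7, induced by that complex, stood under IL-17 at 49.3, 66.2 and 33.7 CPM with si-NC, 24.9, 19.995 and 23.6 with si-IAMP-1 and 24.5, 24.9 and 27.6 with si-IAMP-2, and fell by 1.13 (SE 0.24) and 0.97 (SE 0.24) on the log2 scale. Untreated, its values were 38.99, 21.8 and 32.3 CPM with si-NC, 26.2, 18.2 and 36.4 with si-IAMP-1 and 21.3, 20.2 and 25.8 with si-IAMP-2, so that the groups overlapped. Under TGF-β si-IAMP-1 libraries, at 918, 949.6 and 997 CPM, all lay above si-NC, at 742, 759 and 801, with a log2 fold change of 0.32 that is under the minimum for a call, and si-IAMP-2 libraries stood at 837, 742 and 738. Irf1, which responds mainly to interferon-γ and to NF-κB, behaved with less spread between libraries. In untreated CFs it stood at 20.5, 17.9 and 24.6 CPM with si-NC, 17.7, 15.3 and 16.9 with si-IAMP-1 and 11.6, 11.1 and 10.7 with si-IAMP-2, and it fell with si-IAMP-2 by 0.94 (SE 0.096, edgeR adjusted p = 3.3e-07). Under IL-17 it stood at 34.4, 28.9 and 26.9 CPM with si-NC, 22.4, 21.4 and 22.4 with si-IAMP-1 and 15.1, 17.6 and 18.1 with si-IAMP-2, and fell with si-IAMP-2 by 0.85. With TGF-β it stood at 45.8, 48.2 and 48.5 CPM with si-NC, 48.6, 53.3 and 57.1 with si-IAMP-1 and 59.01, 50.5 and 51.9 with si-IAMP-2, with no call.

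The sensors are the RNA helicases Ddx58 (RIG-I) and Ifih1 (MDA5), their regulator Dhx58, and Zbp1. Ddx58 stood under IL-17 at 149.7, 171 and 122 CPM with si-NC, 92.5, 78.95 and 84.7 with si-IAMP-1 and 81.3, 83.7 and 86.7 with si-IAMP-2, and fell by 0.80 and 0.83 on the log2 scale. Without a stimulus it stood at 125, 95.95 and 109 CPM with si-NC, 94.2, 79.99 and 115 with si-IAMP-1 and 76.001, 75.7 and 84.4 with si-IAMP-2, and in the TGF-β table at 323, 363 and 357 CPM with si-NC, 377, 377 and 414 with si-IAMP-1 and 395, 358 and 359.9 with si-IAMP-2, with no call. Ifih1 under IL-17 stood at 76.3, 90.5 and 58.1 CPM with si-NC, 40.2, 36.2 and 37.6 with si-IAMP-1 and 38.2, 41.1 and 41.4 with si-IAMP-2, and fell by 0.99 and 0.92. Its untreated values were 62.4, 40.9 and 51.8 CPM with si-NC, 41.02, 33.2 and 60.4 with si-IAMP-1 and 38.1, 37.5 and 43.4 with si-IAMP-2 and its TGF-β values 123, 157 and 152 CPM with si-NC, 146, 143 and 171 with si-IAMP-1 and 187, 165 and 146 with si-IAMP-2, again without a call. Dhx58 also fell under IL-17, by 1.02 with si-IAMP-1 and 1.02 with si-IAMP-2.

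Zbp1 went the other way in untreated CFs. It stood at 12.6, 8.62 and 9.53 CPM with si-NC, 19.7, 14.97 and 27.003 with si-IAMP-1 and 17.2, 16.2 and 20.6 with si-IAMP-2, and rose by 1.00 (SE 0.25, edgeR adjusted p = 0.016) and 0.80 (SE 0.25, adjusted p = 0.034) on the log2 scale. All 6 knockdown libraries lay above the highest si-NC library, and Zbp1 was the member called higher with each siRNA. Under IL-17 it stood at 20.3, 29.2 and 13.1 CPM with si-NC, 27.1, 15.1 and 16.9 with si-IAMP-1 and 19.1, 18.2 and 19.7 with si-IAMP-2, with log2 values of -0.09 and -0.15 and overlapping groups. In the TGF-β table all knockdown libraries lay above si-NC again, at 234, 259.8 and 257 CPM with si-NC, 300.4, 294 and 321 with si-IAMP-1 and 309.6, 284 and 288 with si-IAMP-2, with log2 values of 0.29 and 0.23, under the minimum for a call.

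Of the IFIT proteins, which bind the ends of foreign RNA, Ifit1 stood untreated at 65.7, 24.4 and 44.6 CPM with si-NC, 26.3, 16.3 and 36.9 with si-IAMP-1 and 23.1, 25.7 and 31.7 with si-IAMP-2, with log2 values of -0.77 and -0.76 and no call. The lowest si-NC library lay among the knockdown libraries. Under IL-17, Ifit1 stood at 114, 105 and 57.4 CPM with si-NC, 28.8, 32.5 and 33.9 with si-IAMP-1 and 33.5, 40.3 and 36.7 with si-IAMP-2, and fell by 1.55 (SE 0.26, edgeR adjusted p = 0.0032) and 1.34 (SE 0.26, adjusted p = 0.0047). The knockdown libraries lay below every si-NC library there, and near the untreated knockdown libraries. With TGF-β the order was turned, with 409.9, 493 and 446 CPM with si-NC, 584.7, 602 and 693 with si-IAMP-1 and 717, 652 and 576 with si-IAMP-2, log2 values of 0.48 and 0.53 that are under the minimum for a call.

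Ifit3 stood under IL-17 at 218, 255 and 124 CPM with si-NC, 75.05, 66.6 and 72.3 with si-IAMP-1 and 73.5, 91.1 and 89.7 with si-IAMP-2, and fell by 1.49 and 1.25 on the log2 scale. Untreated it stood at 169, 85.9 and 138 CPM with si-NC, 109.7, 80.4 and 169.8 with si-IAMP-1 and 85.4, 84.6 and 102 with si-IAMP-2 with overlapping groups, and in the TGF-β table at 932, 1073 and 1023 CPM with si-NC, 1254, 1200.3 and 1394 with si-IAMP-1 and 1587, 1355 and 1220.1 with si-IAMP-2. Ifit3b, a near copy of Ifit3 whose reads the counting could have split between them, stood under IL-17 at 76.4, 82.9 and 41.01 CPM with si-NC, 16.9, 16.5 and 17.7 with si-IAMP-1 and 14.5, 17.7 and 18.4 with si-IAMP-2, and fell by 1.98 and 2.01. Ifit2 separated the siRNAs. It fell with si-IAMP-2 untreated, by 0.63, and under IL-17, by 1.28, while with si-IAMP-1 its values were 0.26 and -0.31.

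Isg15 is a ubiquitin-like protein that Herc6 attaches to targets in mice and Usp18 removes, and Usp18 also restrains the interferon receptor. Isg15 stood under IL-17 at 53.97, 80.1 and 36.9 CPM with si-NC, 24.9, 15.9 and 18.8 with si-IAMP-1 and 26.1, 20.9 and 26.4 with si-IAMP-2, and fell by 1.53 (SE 0.32) and 1.24 (SE 0.32). Untreated, si-NC stood at 47.2, 30.7 and 35.3 CPM and si-IAMP-2 at 24.8, 21.3 and 29.9, all below, while si-IAMP-1 at 21.5, 14.99 and 45.3 had library 3 among the control values, and neither was called. The TGF-β libraries stood at 316, 361 and 341 CPM with si-NC, 299.6, 303 and 349 with si-IAMP-1 and 470.4, 409.6 and 361 with si-IAMP-2. Usp18 stood under IL-17 at 42.6, 48.3 and 24.1 CPM with si-NC, 12.4, 10.3 and 12.03 with si-IAMP-1 and 10.3, 14.2 and 14.1 with si-IAMP-2, and fell by 1.74 and 1.596. Its untreated values were 34.2, 16.5 and 24.6 CPM with si-NC, 14.2, 7.42 and 21.8 with si-IAMP-1 and 10.3, 11.5 and 14.4 with si-IAMP-2, and its TGF-β values 186, 212 and 195 CPM with si-NC, 181, 191 and 222 with si-IAMP-1 and 247, 207 and 191 with si-IAMP-2, without a call. Herc6 fell with both siRNAs untreated, by 0.65 and 0.99, and under IL-17, by 1.35 and 1.45.

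The OAS proteins make the second messenger that activates RNase L, and all 5 members of the family fell under IL-17 with each siRNA, with log2 values from -1.85 to -1.02 with si-IAMP-1 and from -1.27 to -0.73 with si-IAMP-2. Oasl1, an OAS-like protein without that activity, stood at 5.79, 2.82 and 4.00 CPM untreated with si-NC, 2.60, 1.88 and 3.23 with si-IAMP-1 and 2.95, 3.15 and 3.94 with si-IAMP-2, and fell with si-IAMP-1 by 0.71 (SE 0.25, edgeR adjusted p = 0.039) although the groups overlapped. Under IL-17 it stood at 10.9, 11.03 and 5.18 CPM with si-NC, 2.77, 2.69 and 2.11 with si-IAMP-1 and 3.13, 4.61 and 4.34 with si-IAMP-2. Oas3 in the TGF-β table stood at 27.2, 43.2 and 35.5 CPM with si-NC and 57.2, 57.95 and 71.2 with si-IAMP-1, all above, and rose by 0.82, while si-IAMP-2 stood at 65.1, 49.9 and 48.9, 0.63 without a call.

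The strongest falls among the effectors under IL-17 were those of Mx1, Rsad2 and Cmpk2. Mx1, a dynamin-like GTPase that traps viral nucleoproteins, stood at 6.96, 4.74 and 2.17 CPM with si-NC, 0.638, 0.683 and 0.768 with si-IAMP-1 and 0.570, 0.911 and 0.737 with si-IAMP-2, and fell by 2.74 (SE 0.35, edgeR adjusted p = 3.9e-05) and 2.66 (SE 0.35, adjusted p = 3.1e-05). All 6 knockdown libraries lay below 1 CPM. Rsad2 (viperin), which makes a chain-terminating nucleotide, stood under IL-17 at 102, 83.8 and 45.1 CPM with si-NC, 14.03, 15.01 and 13.04 with si-IAMP-1 and 15.9, 30.95 and 20.5 with si-IAMP-2, and fell by 2.47 and 1.80. Cmpk2, the neighbouring gene that supplies viperin's nucleotide substrate, stood at 38.98, 31.9 and 16.2 CPM with si-NC, 5.20, 7.53 and 6.95 with si-IAMP-1 and 6.17, 9.71 and 6.52 with si-IAMP-2, and fell by 2.15 and 1.98.

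Untreated, Rsad2 stood at 45.1, 14.5 and 30.4 CPM with si-NC, 13.98, 5.71 and 14.4 with si-IAMP-1 and 11.1, 11.3 and 13.1 with si-IAMP-2. All knockdown libraries lay below si-NC, but si-NC library 2 lay close to the highest of them, and the log2 values of -1.41 and -1.36 were not called. Cmpk2 stood at 16.3, 6.66 and 12.3 CPM with si-NC, 6.92, 3.31 and 8.94 with si-IAMP-1 and 4.58, 3.60 and 5.34 with si-IAMP-2, and fell with si-IAMP-2 by 1.40. Under TGF-β Rsad2 rose with both siRNAs, from 71.7, 102 and 93.1 CPM to 139, 135 and 174 with si-IAMP-1 and 206, 162 and 141 with si-IAMP-2, by 0.75 (edgeR adjusted p = 0.045) and 0.93 (adjusted p = 0.016). Cmpk2 stood there at 56.5, 76.3 and 69.9 CPM with si-NC, 84.6, 85.5 and 112 with si-IAMP-1 and 132, 104 and 89.1 with si-IAMP-2, and rose with si-IAMP-2 by 0.68.

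**Figure D4:**
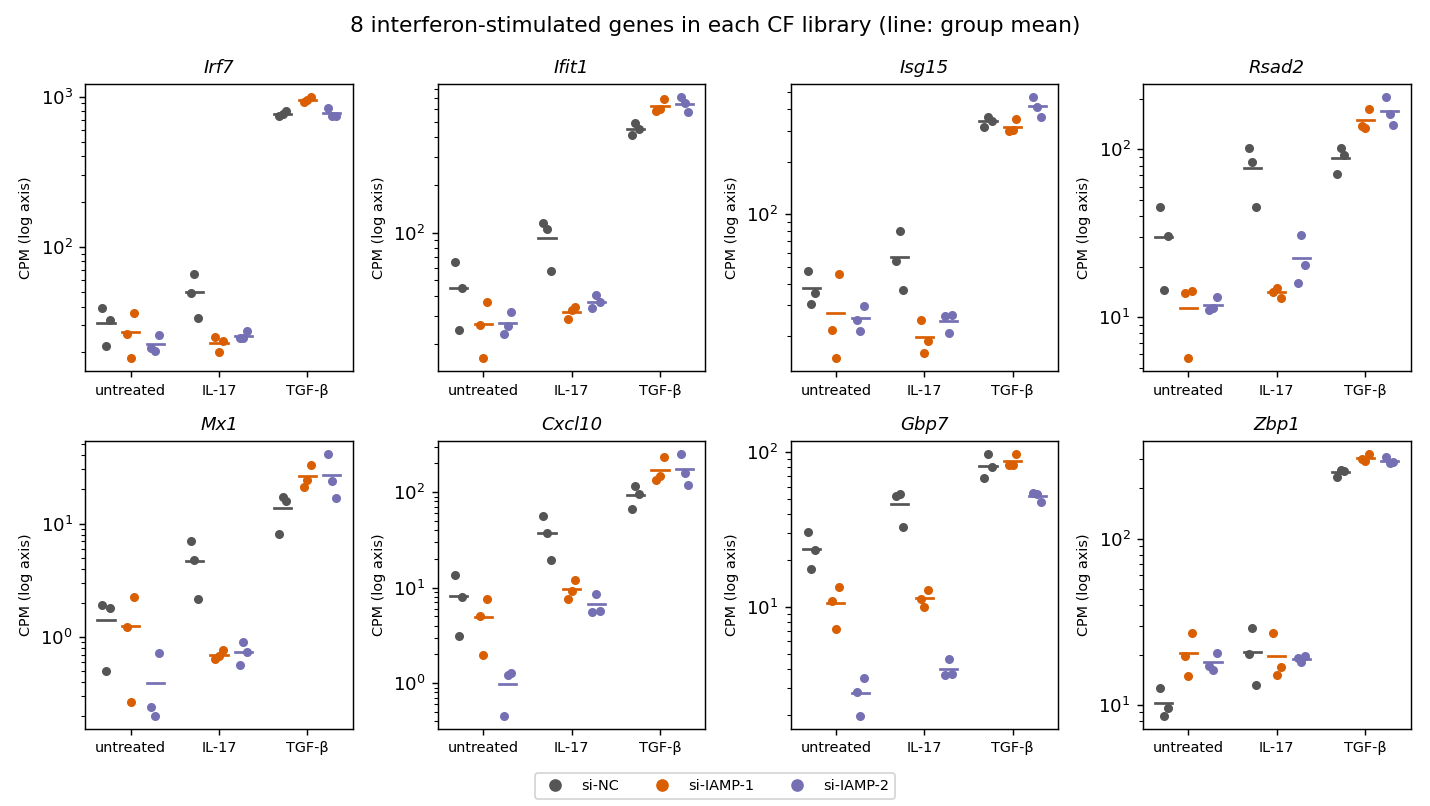
CPM, on a log axis, of 8 interferon-stimulated genes in each of the 27 CF libraries, by table and siRNA (points, libraries 1 to 3 from left to right; lines, group means). Under IL-17 the knockdown libraries of Ifit1, at 28.8 to 40.3 CPM, lie below all si-NC libraries, at 57.4 to 114, while in the TGF-β table they lie above. Gbp7 is lowest with si-IAMP-2 in all 3 tables.

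Several effectors had small values. Eif2ak2 (PKR) stood under IL-17 at 107, 109.8 and 93.1 CPM with si-NC, 67.6, 69.4 and 69.8 with si-IAMP-1 and 70.4, 73.7 and 72.1 with si-IAMP-2. It fell by 0.59 with si-IAMP-1, at the edge of the minimum, and its value of -0.54 with si-IAMP-2 lay just under it. In untreated CFs it stood at 88.8, 74.3 and 77.1 CPM with si-NC, 70.7, 61.3 and 81.98 with si-IAMP-1 and 64.4, 69.6 and 71.4 with si-IAMP-2, and in the TGF-β table at 100.01, 118 and 114 CPM with si-NC, 119.7, 116 and 119 with si-IAMP-1 and 127, 117 and 111 with si-IAMP-2. Bst2 (tetherin) was called in none of the 6 comparisons. It stood untreated at 61.8, 48.8 and 51.5 CPM with si-NC, 68.8, 70.03 and 88.6 with si-IAMP-1 and 50.6, 43.3 and 69.9 with si-IAMP-2, log2 values of 0.48 and 0.00, and under IL-17 at 55.7, 67.04 and 44.7 CPM with si-NC, 93.4, 54.6 and 66.3 with si-IAMP-1 and 50.04, 43.995 and 51.8 with si-IAMP-2. All untreated si-IAMP-1 libraries lay above si-NC, and under IL-17 the groups overlapped. With TGF-β all knockdown libraries of Bst2 lay above si-NC, at 554, 570.3 and 569 CPM with si-NC, 701, 746 and 741 with si-IAMP-1 and 829, 794 and 759 with si-IAMP-2.

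Ifitm3 stood untreated at 308, 259.8 and 276 CPM with si-NC, 219.9, 212 and 248 with si-IAMP-1 and 229, 207 and 253 with si-IAMP-2, and under IL-17 at 312, 347 and 271 CPM with si-NC, 272, 215 and 235 with si-IAMP-1 and 246, 237 and 251 with si-IAMP-2. Under TGF-β it stood at 1078, 1129.8 and 1052 CPM with si-NC, 1186, 1216 and 1244 with si-IAMP-1 and 1381, 1359 and 1329.8 with si-IAMP-2. Its log2 values lay between -0.37 and 0.32 in the 6 comparisons, under the minimum for a call in each. Among the less studied effectors, Ifi27l2a fell with both siRNAs in untreated CFs, from 21.3, 19.2 and 16.5 CPM to 8.18, 8.28 and 9.00 with si-IAMP-1 and 9.16, 5.50 and 13.2 with si-IAMP-2, by 1.17 and 1.05 (edgeR adjusted p = 0.020 and 0.024). All knockdown libraries lay below si-NC, and its lowest si-NC library was the third, whereas 40 of 41 members were lowest in the second. Its IL-17 si-NC libraries, at 18.5, 17.3 and 14.6 CPM, overlapped the untreated ones. Rtp4, a chaperone of transmembrane receptors that tempers the interferon response, fell untreated from 32.4, 13.8 and 23.9 CPM to 12.3, 6.86 and 11.4 with si-IAMP-1 and 9.81, 10.2 and 13.1 with si-IAMP-2. Under IL-17 it fell from 43.5, 50.97 and 28.8 CPM to 11.3, 9.35 and 12.02 with si-IAMP-1 and 11.4, 12.4 and 14.4 with si-IAMP-2, by 1.93 and 1.71 on the log2 scale. Isg20, an exonuclease, fell with si-IAMP-2 untreated and under IL-17, by 0.99 and 1.17, and not with si-IAMP-1, at 0.29 and 0.12.

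Of the 3 chemokines, Cxcl10 had the widest range. Without a stimulus it stood at 13.6, 3.13 and 7.91 CPM with si-NC, 5.09, 1.99 and 7.65 with si-IAMP-1 and 0.458, 1.22 and 1.27 with si-IAMP-2, and it fell with si-IAMP-2 by 3.09 (SE 0.79, edgeR adjusted p = 0.017). Every si-IAMP-2 library lay below every other untreated library. Under IL-17 it stood at 56.2, 37.4 and 19.6 CPM with si-NC, 7.62, 9.12 and 11.99 with si-IAMP-1 and 5.62, 8.67 and 5.75 with si-IAMP-2, and fell by 1.99 and 2.52. With TGF-β it stood at 66.02, 117 and 95.4 CPM with si-NC, 133, 147 and 232 with si-IAMP-1 and 249.3, 160.4 and 119 with si-IAMP-2, above si-NC in all 6 knockdown libraries and not called. Ccl5, which recruits T cells and macrophages, stood under IL-17 at 0.985, 0.557 and 0.435 CPM with si-NC, 0.201, 0.556 and 0.588 with si-IAMP-1 and 0.237, 0.307 and 0.263 with si-IAMP-2, and fell with si-IAMP-2 by 1.31. Untreated it stood at 0.595, 0.300 and 0.321 CPM with si-NC, 0.159, 0.205 and 0.241 with si-IAMP-1 and 0.112, 0.203 and 0.139 with si-IAMP-2, between 13 and 72 estimated counts a library, and was called lower with si-IAMP-2, where 2 of the 3 libraries were at the floor of 18 counts or fewer. Under TGF-β it rose with si-IAMP-1 from 17.8, 18.6 and 18.8 to 29.1, 28.9 and 37.6 CPM, by 0.80 (SE 0.084, edgeR adjusted p = 2.2e-06), while si-IAMP-2 stood at 17.9, 16.9 and 16.4. Cxcl9, the chemokine most tied to interferon-γ, was above the floor in the TGF-β table and in hearts and in no other CF library. In the TGF-β table it rose from 0.602, 0.778 and 0.762 CPM to 1.95, 1.56 and 2.72 with si-IAMP-1 and 2.03, 1.67 and 1.23 with si-IAMP-2, by 1.54 and 1.20.

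Among the GTPases, Gbp7 had the largest fall with si-IAMP-2 in untreated and IL-17-treated CFs. In untreated CFs it stood at 30.5, 17.6 and 23.3 CPM with si-NC, 10.98, 7.20 and 13.5 with si-IAMP-1 and 2.82, 1.99 and 3.49 with si-IAMP-2, and fell by 1.18 (SE 0.33) and 3.12 (SE 0.36), the latter a fold of 8.71. Under IL-17 it stood at 51.9, 54.1 and 33.1 CPM with si-NC, 11.3, 10.1 and 12.97 with si-IAMP-1 and 3.62, 4.61 and 3.69 with si-IAMP-2, and fell by 2.03 and 3.57, the latter a fold of 11.8. In the TGF-β table, where most members stood above si-NC, it stood at 67.7, 96.9 and 79.8 CPM with si-NC, 82.4, 83.2 and 97.1 with si-IAMP-1 and 54.4, 53.96 and 47.7 with si-IAMP-2, and fell with si-IAMP-2 by 0.65 (SE 0.14, edgeR adjusted p = 0.013). Gbp2 stood untreated at 26.5, 22.2 and 24.1 CPM with si-NC, 32.3, 25.4 and 57.4 with si-IAMP-1 and 17.9, 16.2 and 17.1 with si-IAMP-2, log2 values of 0.65 and -0.53 without a call. Under IL-17 it stood at 48.9, 58.7 and 35.7 CPM with si-NC, 55.8, 42.8 and 43.9 with si-IAMP-1 and 29.7, 30.3 and 29.2 with si-IAMP-2, and fell with si-IAMP-2 by 0.70. With TGF-β it stood at 208, 259 and 239 CPM with si-NC, 334, 363 and 389 with si-IAMP-1 and 347, 282 and 224 with si-IAMP-2, and rose with si-IAMP-1 by 0.62. The Gbp genes lie in a cluster of similar copies on chromosome 3, and reads could have been split between them.

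Igtp, Irgm1 and Iigp1 are immunity-related GTPases, of which Igtp and Irgm1 belong to the regulatory class and Iigp1 to the effector class. Igtp stood under IL-17 at 25.8, 29.8 and 15.9 CPM with si-NC, 8.08, 7.85 and 7.82 with si-IAMP-1 and 6.64, 8.55 and 8.82 with si-IAMP-2, and fell by 1.5998 and 1.59. Without a stimulus it stood at 16.3, 10.4 and 14.01 CPM with si-NC, 7.79, 6.26 and 14.99 with si-IAMP-1 and 6.54, 6.52 and 7.03 with si-IAMP-2 and fell with si-IAMP-2 by 1.04, and in the TGF-β table it stood at 102, 125 and 119 CPM with si-NC, 117, 123 and 155 with si-IAMP-1 and 167, 126 and 116 with si-IAMP-2. Irgm1 under IL-17 stood at 275, 299 and 228 CPM with si-NC, 154, 133 and 154 with si-IAMP-1 and 124, 130.2 and 128 with si-IAMP-2 and fell by 0.87 and 1.09. Untreated it stood at 300.4, 222 and 274 CPM with si-NC, 206, 176 and 247 with si-IAMP-1 and 161, 149.7 and 171 with si-IAMP-2, fell with si-IAMP-2 by 0.75, and in the TGF-β table stood at 687, 741 and 733 CPM with si-NC, 739, 772 and 781 with si-IAMP-1 and 832, 775 and 729 with si-IAMP-2. Iigp1 under IL-17 stood at 83.1, 78.9 and 40.7 CPM with si-NC, 25.3, 21.2 and 23.2 with si-IAMP-1 and 37.6, 45.6 and 45.4 with si-IAMP-2, and fell with si-IAMP-1 by 1.55. The TGF-β libraries stood at 144, 199.7 and 176 CPM with si-NC, 256, 283 and 345 with si-IAMP-1 and 368, 279 and 235 with si-IAMP-2, and rose with si-IAMP-2 by 0.76 (edgeR adjusted p = 0.042).

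Since both siRNAs target the same transcript, si-IAMP-2 was set against si-IAMP-1 in each table. Of the members, si-IAMP-2 was below si-IAMP-1 in 5 and above in 0 untreated, where 10.1% and 5.72% of all genes were called so. Under IL-17 it was below in 4 and above in 2, against 9.62% and 6.07%, and in the TGF-β table below in 2 and above in 0, against 3.12% and 0.84%. In each table the share of members called lower was near that of all genes. Gbp7 was called lower with si-IAMP-2 in all 3 tables, by 1.95, 1.54 and 0.75 on the log2 scale. Ifit2, Isg20 and Gbp2 were called lower untreated and under IL-17, Irf1 untreated, and Ccl5 in the TGF-β table, and Oas2 and Iigp1 were called higher under IL-17. For Isg20 the difference was -1.28 (SE 0.13) untreated and -1.30 (SE 0.17) under IL-17. For Ifit1 it was 0.01 (SE 0.44) and 0.20 (SE 0.26), without a call. The untreated count was 3 without si-IAMP-2 library 2, and the IL-17 count 3 without si-IAMP-2 library 3.

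Other genes known to respond to interferons, 49 that are not members, were counted in the same way. Under IL-17, 39 of the 49 were called lower with si-IAMP-1 and 37 with si-IAMP-2, against 7.97% and 13.7% of all genes. With either siRNA 0 were called higher, and the medians were -0.97 and -1.09. Untreated, 14 and 20 of the 49 were called lower and 0 higher, against 6.65% and 13.1% of all genes lower. The list had more untreated calls than the members, of which 5 and 12 of 43 were called lower. With TGF-β, 7 and 2 of the 49 were called higher and 0 lower, against 2.45% and 2.07% of all genes higher. Between stimuli in si-NC, 16 of the 49 were called higher under IL-17, against 2.09% of all genes. With TGF-β, 42 were called higher and 1 lower than in untreated si-NC, against 17.7% and 16.1% of all genes. The list was drawn up with earlier results of these data known, so its counts are not an independent check of the members.

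Of 35 genes upstream in the pathway, 33 were found and 26 to 28 were tested. Untreated, 0 were called higher and 2 lower with si-IAMP-1, against 5.42% and 6.65% of all genes. With si-IAMP-2, 4 were called higher and 3 lower, against 8% and 13.1%. The untreated shares called lower were near those of all genes. Under IL-17, 0 were called higher and 7 lower with si-IAMP-1, against 5.58% and 7.97% of all genes. With si-IAMP-2, 5 were called higher and 4 lower there, against 8.06% and 13.7%. With TGF-β 1 was called, higher with si-IAMP-2, against 2.07% of all genes. Irf8, a regulator of the myeloid lineage, fell with both siRNAs untreated, by 1.46 and 1.41, and under IL-17, by 1.70 and 1.71. Tlr3, the receptor for double-stranded RNA in endosomes, fell under IL-17 by 0.93 and 1.23. Tlr7, the receptor for single-stranded RNA, rose there with si-IAMP-2 by 1.51, at a mean of 1.37 CPM. Stat3, the transducer of IL-6, rose with si-IAMP-2 by 1.10 untreated and 0.81 under IL-17. Socs3, a brake on that signal, rose untreated with si-IAMP-2 by 1.26 and fell under IL-17 with si-IAMP-1 by 0.92. The ligand genes were at or near 0, with Ifnb1 at a mean of at most 0.0294 CPM in any untreated or IL-17 group, and so were Ifna2, Ifna4, Ifng, Ifnl2 and Ifnl3. Summed macrophage markers ranged from 65.7 to 67.0 CPM under IL-17 with si-NC, from 71.5 to 76.6 with si-IAMP-1 and from 83.4 to 92.9 with si-IAMP-2, a sum to which Lyz2 and Csf1r gave the most. Of the 12 markers, 1 was called higher (Csf1r) and 1 lower (C1qa) with si-IAMP-1, and 1 higher (Csf1r) and 2 lower (C1qa and C1qb) with si-IAMP-2, and 7 and 5 of the 12 had a value below 0. C1qa, a complement gene of tissue macrophages, stood at 2.36, 2.24 and 2.49 CPM with si-NC, 1.77, 1.41 and 1.51 with si-IAMP-1 and 1.24, 1.52 and 1.51 with si-IAMP-2. Untreated, the macrophage sums were 65.6 to 70.8 CPM with si-NC, 64.2 to 68.2 with si-IAMP-1 and 82.2 to 86.4 with si-IAMP-2.

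The summed cardiomyocyte markers were lower in the knockdown libraries. Under IL-17 the 5 markers summed to 69.5 to 76.2 CPM with si-NC, 31.9 to 35.5 with si-IAMP-1 and 22.8 to 25.7 with si-IAMP-2, and untreated to 90.1 to 97.7, 41.9 to 46.9 and 27.7 to 32.7 CPM in the same order. Nearly all of each sum was Tnnt2, which fell by 1.11 and 1.62 on the log2 scale under IL-17 and by 1.08 and 1.66 untreated, whereas the defining marker Myh6 was at 0 or at most 0.0983 CPM. The markers did not all fall. Of 3 tested under IL-17, 1 was called higher and 1 lower with si-IAMP-1, and 0 higher and 1 lower with si-IAMP-2. Ryr2 stood there at 6, 20 and 18 estimated counts with si-NC, 42, 33 and 49 with si-IAMP-1 and 35, 27 and 24 with si-IAMP-2. Summed endothelial markers under IL-17 were 52.7 to 57.2 CPM with si-NC, 44.8 to 51.3 with si-IAMP-1 and 45.7 to 50.5 with si-IAMP-2, with 0 of 6 called higher and 1 lower with each siRNA. Of the plasmacytoid dendritic cell markers, Siglech was at 0 in every untreated and IL-17 library, and Tcf4 fell under IL-17 by 0.99 and 1.21. Tcf4 was abundant in these CFs, at 15469, 14887 and 15451 estimated counts in the IL-17 si-NC libraries. Ccr9 went the other way, with values of 1.34 and 1.64 without a call, at 11, 0 and 16 estimated counts with si-NC. Bst2 had values of 0.35 and -0.22. The part of any of these markers in the members' fall was not tested.

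In hearts no member was called between genotypes. Of the 44 members 39 were tested, and 0 were called higher or lower in KO by edgeR, as were 0% of the 16675 genes tested in each direction. At an unadjusted p under 0.05 there was 1 member, Rsad2, without a share over all genes computed, and DESeq2 called 0. Log2 fold changes ran from -0.35 (Ifit3b) to 0.44 (Mx2), with a median of -0.07 against 0.00 over all genes. Mx1, Oas3, Zbp1, Cxcl10 and Ccl5 were too low to be tested. For no member did the 4 KO hearts lie wholly above or below the 4 Het hearts.

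The 3 members with the smallest p were Rsad2, Gbp3 and Xaf1. Rsad2 stood at 13.3, 12.05, 10.3 and 11.1 CPM in Het and 9.21, 8.78, 10.4 and 10.1 in KO, a log2 fold change of -0.28 (SE 0.094, edgeR adjusted p = 1). Gbp3 stood at 4.01, 4.31, 4.07 and 3.20 CPM in Het and 3.34, 3.50, 3.41 and 2.67 in KO, and Xaf1, an apoptosis factor, at 4.6003, 3.96, 4.24 and 4.52 CPM in Het and 3.69, 3.97, 3.57 and 3.92 in KO, with values of -0.27 and -0.19 that were likewise not called. For the other members named above the standard errors give the reach of the comparison. Irf7 stood at 10.999, 10.6, 9.11 and 9.05 CPM in Het and 9.47, 8.94, 8.91 and 9.57 in KO, -0.11 (SE 0.083), and Stat2 at 14.01, 12.9, 12.7 and 13.3 CPM in Het and 13.5, 14.98, 12.5 and 12.97 in KO, 0.03 (SE 0.072). Ifit1 stood at 2.22, 4.09, 2.71 and 2.68 CPM in Het and 2.87, 3.38, 2.50 and 3.19 in KO, 0.03 (SE 0.18), on 53 to 94 counts a heart. The genotypes overlapped for each of these genes.

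Further values in hearts were as close, and none of the genes that follow was called. Isg15 stood at 1.17, 1.57, 1.23 and 0.921 CPM in Het and 1.13, 1.05, 1.85 and 1.34 in KO. Ifit3 stood at 3.72, 3.83, 3.48 and 3.00 CPM in Het and 3.08, 3.42, 2.96 and 4.05 in KO, and its genotypes overlapped as those of Isg15 did. Usp18 stood at 2.34, 1.74, 1.95 and 1.64 CPM in Het and 1.43, 2.03, 1.93 and 1.98 in KO. Of the regulators, Irf1 stood at 16.1, 11.6, 11.2 and 12.9 CPM in Het and 12.1, 13.6, 13.1 and 12.02 in KO, and Irf9 at 15.8, 14.5, 12.2 and 15.5 CPM in Het and 13.4, 13.5, 12.2 and 13.2 in KO. Both ranges overlapped. The sensor Ddx58 stood at 8.53, 9.83, 7.93 and 9.65 CPM in Het and 8.12, 10.1, 7.51 and 9.05 in KO, and Ifih1 at 4.10, 5.22, 4.20 and 4.603 CPM in Het and 3.65, 4.26, 3.20 and 4.61 in KO. The kinase Eif2ak2 stood at 3.51, 3.74, 2.97 and 3.72 CPM in Het and 2.87, 3.12, 3.12 and 3.45 in KO. Bst2 stood at 7.57, 8.87, 7.46 and 6.00 CPM in Het and 6.38, 6.50, 7.47 and 5.65 in KO. Ifitm3, the highest member per length in hearts as in CFs, stood at 43.3, 46.6, 44.6 and 48.7 CPM in Het and 41.3, 46.6, 39.7 and 42.2 in KO. Cxcl10 and Ccl5 were at most 0.339 and 0.410 CPM in any heart. Of the GTPases, Gbp2 stood at 6.36, 9.52, 8.27 and 7.77 CPM in Het and 6.73, 8.52, 6.16 and 7.84 in KO. Igtp stood at 6.61, 9.92, 8.43 and 7.73 CPM in Het and 6.56, 7.85, 7.76 and 6.64 in KO, and Irgm1 at 9.24, 11.4, 9.88 and 9.41 CPM in Het and 10.6, 10.6, 8.58 and 9.44 in KO. Summed over all 44 members, Het hearts held 276 to 317 CPM and KO hearts 266 to 291.

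**Figure D5:**
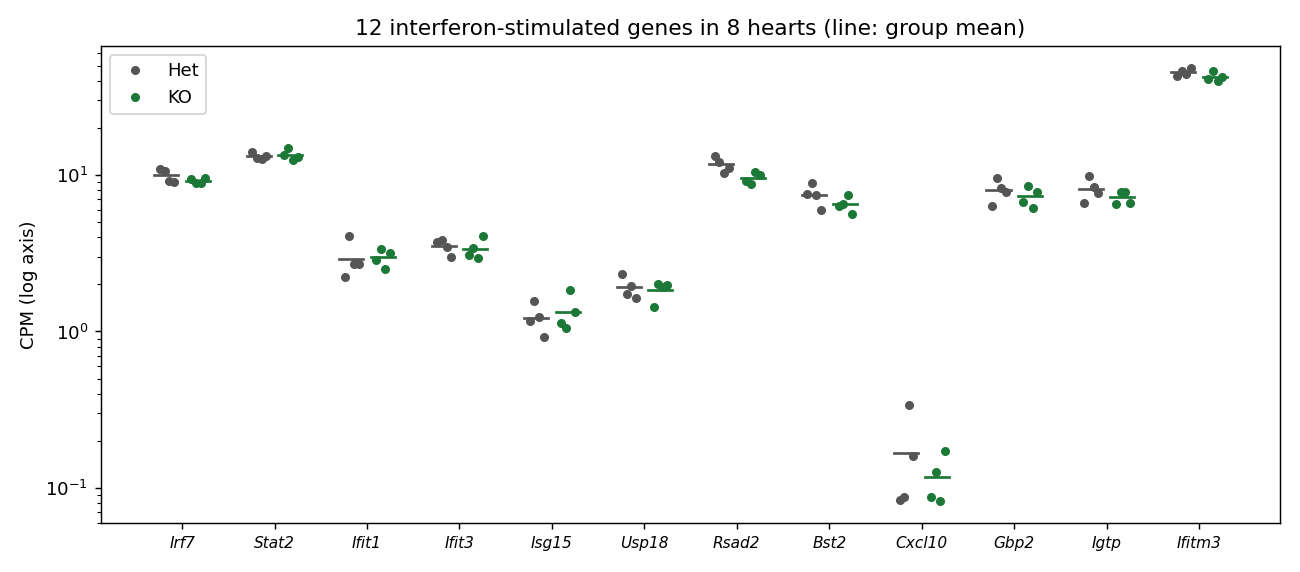
CPM, on a log axis, of 12 interferon-stimulated genes in 4 Het and 4 KO hearts (points, hearts; lines, group means). The genotypes overlap for each gene, from Cxcl10 near the floor to Ifitm3 at 39.7 to 48.7 CPM.

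Where a promoter window was found, the presence of ISRE letters did not separate the members by their siRNA effect. Under IL-17 the 20 members with ISRE letters had a median of -1.23 on the log2 scale with si-IAMP-1 and -1.14 with si-IAMP-2, and the 12 tested members without them -1.11 and -1.18. The 10 members with GAS letters had medians of -0.52 and -0.79, and the 22 without -1.33 and -1.22. These medians describe the members and were not tested.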

How the data were processed

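Per the labels and the study's methods, the authors trimmed paired reads with Cutadapt, aligned them to GRCm38 with HISAT2 and quantified genes with StringTie. Strand, annotation release and how StringTie values became counts are not given in the sources used here. The deposited CF tables hold estimated counts per gene, in whole numbers in which a read pair stands for up to 6, and the deposited heart table holds raw counts. No table was normalised by the authors, and the authors' own DESeq2 comparisons were not used.

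CPM and fits used TMM scaling in edgeR 4.0.16 (limma 3.58.1, R 4.3.3). Genes passing filterByExpr entered robust quasi-likelihood tests with Benjamini-Hochberg adjustment, one fit per table and one joint fit of 27 CF libraries for stimuli and differences of differences. A call needed an adjusted p up to 0.05 and a change of 1.5-fold or more. DESeq2 1.42.0, other filters, thresholds, the 2 groups alone, a replicate block and leaving out each library were alternatives. The script was tested on simulated counts. Genes named were a fixed list of members, the called members of largest change in each comparison, the 3 of smallest p in hearts, and 6 upstream genes of largest change among those called. The members, lists and roles were chosen with earlier results of these data known. Heart columns name a genotype and not an animal. Deviations over all genes showed no pairing of the CF libraries by replicate number, which was not tested for the members alone. All libraries differ from each other.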

Additional observations from a re-analysis of the deposited data

Results flagged for a closer look

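The effect of the siRNAs against si-NC differed between TGF-β and untreated CFs for 7 members with si-IAMP-1 and 21 with si-IAMP-2, by the interaction term of the joint edgeR fit of 27 libraries (Benjamini-Hochberg adjusted p up to 0.05 and a difference of 1.5-fold or more). Values are log2 differences, TGF-β minus untreated, and all were above 0. With si-IAMP-1 they were 1.24 for Ifit1, 2.14 for Rsad2, 0.92 for Ifi27l2a, 1.24 for Rtp4, 0.91 for Herc6, 1.80 for Ccl5 and 1.27 for Gbp7. With si-IAMP-2, among the IFIT genes, Irf1, Isg20 and the enzymes that act with Isg15, they were 1.27 for Ifit1, 1.78 for Ifit2, 1.68 for Ifit3b, 0.82 for Isg20, 1.17 for Usp18, 1.10 for Irf1 and 1.19 for Herc6. Among the other effectors they were 2.27 for Rsad2, 2.83 for Mx1, 1.61 for Mx2, 0.78 for Ifi27l2a, 0.61 for Ifitm3, 1.17 for Rtp4, 0.87 for Xaf1, 2.06 for Cmpk2 and 0.82 for Parp14. Among the chemokines and GTPases they were 3.99 for Cxcl10, 1.31 for Ccl5, 2.46 for Gbp7, 1.26 for Igtp and 0.84 for Irgm1. Both siRNAs are set against the same untreated si-NC libraries, of which library 1 was the highest for 40 of 41 members, and the counts without it were 3 with si-IAMP-1 and 11 with si-IAMP-2.

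Among the 4 hearts of a genotype, 1 heart lay far from the other 3 by Dixon's 95% criterion in 6 of 78 groups tested, where chance gives about 1 in 20. In KO hearts, the lowest Usp18 value was 1.43 CPM (the nearest 1.93), and the highest Ifi35 value was 16.5 CPM (the nearest 12.7). In Het hearts, the lowest Mx2 value was 0 (the nearest 0.878 CPM) and the lowest Oas2 value 8.73 CPM (the nearest 11.1). The highest Herc6 value in Het hearts was 2.92 CPM (the nearest 2.40), and the highest Oasl2 value 9.48 CPM (the nearest 8.24). The Mx2, Oas2 and Herc6 values belong to the same Het heart. These genes were not called between the genotypes.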

How the results depend on the processing

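The counts of members called under IL-17 against si-NC were within 1.5 times of 34 and 37 under each alternative, and leaving out single libraries gave 32 to 34 and 30 to 39. In untreated CFs the 6 calls with si-IAMP-1 became 3 with no filter on low counts and 2 with the 2 groups alone, and 1 to 8 without single libraries. The 13 calls with si-IAMP-2 became 7 when a change of 1 or more on the log2 scale was required, and 6 to 17 without single libraries. In the TGF-β table the 5 calls with si-IAMP-1 became 1 at that threshold, 15 with no minimum fold change and 2 with no filter, and 2 to 6 without single libraries. The 5 calls with si-IAMP-2 became 1, 15 and 3 in the same order, 9 by DESeq2 and 3 with the 2 groups alone, and 3 to 6 without single libraries. Between the siRNAs, the threshold of 1 left 3 of 5 calls untreated, 2 of 6 under IL-17 and 0 of 2 in the TGF-β table, where no minimum fold change gave 6. Leaving out single libraries gave 3 to 7 in each of the first 2 tables. For IL-17 against untreated si-NC, the 16 calls became 9 at the threshold of 1 and 25 by DESeq2, and 4 to 28 without single libraries. For the difference of effects, IL-17 minus untreated, the 0 calls with si-IAMP-1 became 8 by DESeq2 and 1 with at least 10 counts in every library, and 0 to 7 without single libraries, and with si-IAMP-2 they became 0 to 1. For TGF-β minus untreated, the 7 calls with si-IAMP-1 became 11 by DESeq2 and 3 to 15 without single libraries, and the 21 with si-IAMP-2 became 11 to 25. Hearts gave 0 calls under each alternative. Except where libraries were left out, the cause was not tested. Shares of all genes were not computed under the alternatives, so these counts only describe the members.

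Over all genes passing the filter, the correlation of deviations between same-numbered CF libraries was at most 0.0284 in 27 pairs. That measure cannot show a shift confined to the members, for most of which library 2 was the lowest in each untreated group. Whether the numbers pair the libraries for the members was not tested. With the replicate block, the untreated counts were 10 with si-IAMP-1 and 17 with si-IAMP-2, the IL-17 counts 33 and 34, the TGF-β counts 2 and 2, and the other counts were within 1.5 times of those without it. No paired analysis was possible in hearts because their columns carry no number. Of 1599 alternative values of 100 called member values, 1420 kept their call, 179 lost it and 0 changed sign. Of 1403 values of uncalled ones, 19 passed the thresholds and 45 changed sign, between -0.0881 and 0.1574 on the log2 scale. The number of libraries and their shared spread in these genes limit the untreated comparisons, and estimated counts limit Cxcl9, Ccl5 and Mx1 at low levels.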
